A study of Mus musculus with 12 samples.

Results

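The control pull-down of a glial RiboTag experiment was examined on its own: the 6 libraries made with an isotype IgG antibody, of 12 libraries in the series, chosen by the antibody and time point in their labels. The IgG pull-down is the control for RNA of the small intestinal muscularis that binds to antibody and beads without an epitope tag, so the comparison of T3 (3 h after intestinal manipulation, animals 1, 3 and 4) with T0 (naive, animals 1, 2 and 4) asks how this background RNA changed after injury. All 6 mice were Rpl22HA animals, in which a tamoxifen-inducible Cre (CreERT2) under a glial promoter switches the ribosomal protein Rpl22 to an HA-tagged form. All received 2 intraperitoneal injections of 100 µl tamoxifen at 15 mg/ml in Miglyol 812 from an age of 10 to 12 weeks and were killed 3 to 4 weeks after the first injection, so Cre and tamoxifen were common to both groups. The homogenate of each animal was split between anti-HA and IgG1, which gave 1 HA and 1 IgG library per mouse, and equal numbers at T0 and T3 name different mice.

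In intestinal manipulation the small intestine is handled during surgery, which is followed by inflammation of the muscularis. The muscularis externa consists mainly of smooth muscle with the myenteric plexus of neurons and glia, interstitial cells of Cajal (the pacemaker cells), fibroblasts and resident macrophages, under a serosal sheet of mesothelium. In the first hours after damage, cells of many types transcribe immediate early transcription factors, and NF-kB and STAT3 signalling then raises chemokines, acute phase genes and their own feedback inhibitors. Metallothioneins, small proteins that bind zinc, are a further classical early response to stress. In the tissue label's terms the IgG libraries were muscularis: the 16 smooth muscle markers summed to between 74450 and 109279 CPM (the usual unit of counts scaled to the library total).

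The T3 libraries were shallow. At T0 the totals were 388214, 583396 and 1289833 counts in animals 1, 2 and 4, and at T3 they were 88136, 92022 and 248522 in animals 1, 3 and 4. The groups did not overlap, the mean ratio of T3 to T0 was 0.190, and the two-sided exact permutation test gave p = 0.1, the smallest that 3 against 3 samples allow. The limit that a count of 0 sets, taken as 3 counts, is on average 26.2 CPM at T3 and 5.07 CPM at T0 (these limits and all count intervals cover counting error only). At a common depth of 88136 counts, 9012 to 9139 genes would be detected at T0 and 8727 to 8936 at T3.

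The T3 libraries of animals 1 and 3 stood apart from that of animal 4 in the cells that the HA pull-down targets. The HA library held 13.9 and 16.3 times the counts of the IgG library in these animals, against 5.17 times in T3 animal 4 and 2.23 to 6.71 times at T0. The 13 glial markers summed to 1441 and 1217 CPM in IgG of T3 animals 1 and 3, against 282 CPM in T3 animal 4 and 238 to 332 CPM at T0. This was 28.6% and 22.3% of the summed level in HA of the same animals, against 5.54% in T3 animal 4 and 5.05% to 7.28% at T0. The 5 markers of interstitial cells of Cajal behaved alike, with 1032 and 902 CPM in T3 animals 1 and 3 and 237 CPM in T3 animal 4, against 293 to 400 CPM at T0. Whether RNA of the HA pull-down entered these 2 IgG libraries was not tested, and if it did, their values are not those of unspecific binding alone. Results on glial and Cajal cell genes are therefore given with the value in T3 animal 4, and counts of changed genes also without T3 animals 1 and 3.

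Injury was followed by a rise of early response genes in the IgG RNA and by a smaller set of falls. Of 5219 genes tested, 285 (5.46%) passed an adjusted p under 0.05, with 231 (4.43%) higher and 54 (1.03%) lower at T3, and 1103 genes had an unadjusted p under 0.05. The median log2 fold change was 2.28 among the higher genes, with a range of 1.02 to 8.03, and -1.78 among the lower genes, with a range of -1.02 to -4.47, against -0.02 over all tested genes. The 231 higher genes together made up 1.24%, 1.66% and 1.36% of the counts at T0 and 7.36%, 10.5% and 8.75% at T3. The 54 lower genes made up 2.47%, 2.14% and 2.67% at T0 and 0.743%, 0.992% and 0.765% at T3. Without T3 animals 1 and 3 the test called 295 genes, of which 188 were among the 285. Leaving out 1 library moved the count by more than 1.5 times in 3 cases, to 162 without T0 animal 2, 167 without T0 animal 4 and 181 without T3 animal 4 (139 of the 285 were kept in the last), and 120 genes were called whichever library was left out.

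Calls differed in direction with the count of the gene. CPM did not overlap between the groups for 700 tested genes that were higher at T3 (13.4%) and 657 that were lower (12.6%), a nearly even split, and 229 of the 231 higher calls and all 54 lower calls were among them. Among the 690 genes with a mean of at least 100 counts, 21 were called higher and 22 lower, whereas among the 1369 genes with a mean of 10 to 20 counts 47 were called higher and 1 lower. All 29 calls among the 60 genes under a mean of 10 counts were rises, which the filter given below in part fixed. A gene that reaches its cutoff in all 3 T0 libraries has a mean over 10 counts. None of the 60 could therefore enter the test through T0 libraries alone. No gene with a T0 mean under 45.8 CPM was called lower, and 3570 of the tested genes (68.4%) had a T0 mean under 4 times the T3 limit of a count of 0. The filter asked for 31.4 CPM in 3 libraries. Of the tested genes 167 reached this in T3 libraries only, of which 80 were called higher, and 71 in T0 libraries only, of which 13 were called lower, so a difference in that direction was built into their selection and their calls are no support for a group of genes. Among the other 4981 genes 151 were called higher and 41 lower. These reached the cutoff in at least 1 library of each group. A gene among them that fell short of it in part of the T0 libraries still needed T3 libraries to be tested, and the reverse. The other 4981 genes are therefore not free of the selection. With no filter 268 of the 285 genes were called. By counts alone, 1424 genes were above 3 counts in every T0 library and at 3 or fewer in every T3 library. Of these, 72 were among the tested genes and 7 among the lower calls. The opposite rule was met by 8 genes. The T0 group total was 5.28 times that of T3, so depth enters both numbers and they do not count falls or rises.

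**Figure D1:**
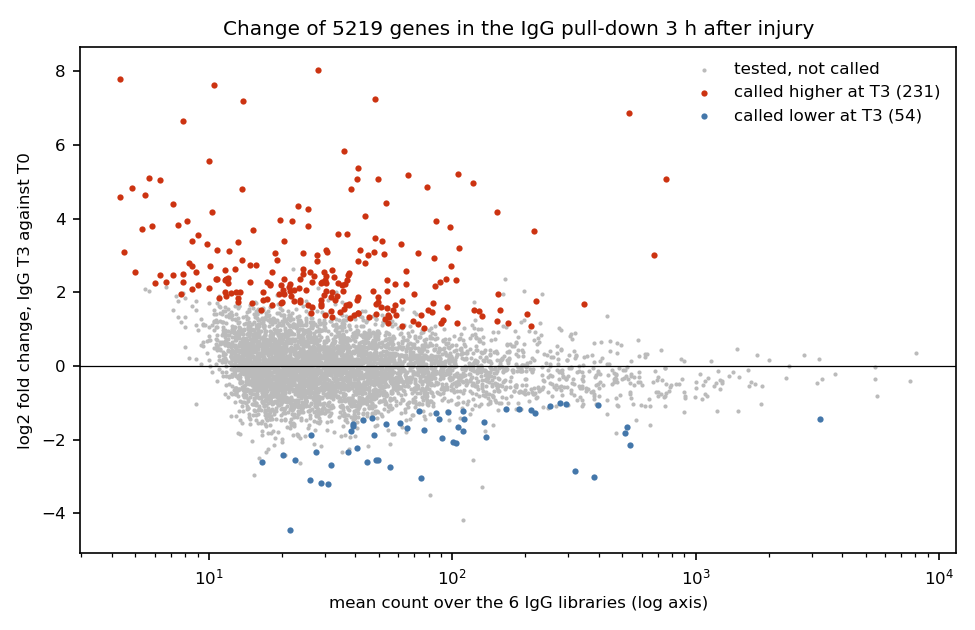
Log2 fold change of IgG T3 against T0 (vertical axis) against the mean count over the 6 IgG libraries (horizontal log axis) for 5219 tested genes, 1 point per gene. The 231 genes called higher (red) lie at all counts and the 54 called lower (blue) mainly to the right. Under a mean of 10 counts every call is a rise, where the filter let no gene in through T0 libraries alone.

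Most tested immediate early genes rose. Of 27 listed genes 20 could be tested, 19 were called higher and 0 lower, and their median log2 fold change was 3.37 against -0.02 over all tested genes. Of the 20, 8 reached the filter in T3 libraries only (among them Fosb, Fos, Egr1, Csrnp1 and Fosl1). The other 12 were all called higher, but they were not all free of the filter. Junb was under its cutoff of 31.4 CPM in T0 animal 1, so its test needed a T3 library. Fosb, an AP-1 subunit, was at 5.15, 6.86 and 2.33 CPM at T0 and at 817, 706 and 579 CPM at T3. All 3 T3 libraries lay far above every T0 library, a log2 fold change of 7.25 (SE 0.42, adjusted p = 4.79e-07). Fos was at 18.0, 17.1 and 11.6 CPM at T0 and at 454, 663 and 451 CPM at T3, a log2 fold change of 5.07 (SE 0.35, adjusted p = 5.97e-07). Junb, a further AP-1 subunit, was at 28.3, 39.4 and 31.8 CPM and then at 1452, 967 and 1368 CPM, with a log2 fold change of 5.22. The zinc finger factor Egr1 went from 23.2, 17.1 and 27.9 CPM to 1067, 967 and 640 CPM, and the nuclear factor Csrnp1 from 5.15, 10.3 and 7.75 CPM to 397, 641 and 418 CPM, both without overlap. Fosl1 had 1 count in all T0 libraries and 62 at T3, a ratio of 327 with a 95% counting interval of 56.6 to 13124. The 7 untested members were below the count filter, and Nr4a3 was the tested member that missed the threshold (log2 fold change 1.98, adjusted p = 0.061). The calls of Jund, Nr4a1 and Klf2 were lost when single libraries were left out (T3 animal 4 among them in each case), with adjusted p up to 0.201, 0.471 and 0.11 over the alternatives.

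The start region of Fos (chr12:85473640-85473939, GRCm38.p6, plus strand, RefSeq), 250 bases before to 50 after the gene start, is shown because Fos belongs to the list with the most calls; capitals mark TGACG on either strand, the core of the cAMP response element.
Fos: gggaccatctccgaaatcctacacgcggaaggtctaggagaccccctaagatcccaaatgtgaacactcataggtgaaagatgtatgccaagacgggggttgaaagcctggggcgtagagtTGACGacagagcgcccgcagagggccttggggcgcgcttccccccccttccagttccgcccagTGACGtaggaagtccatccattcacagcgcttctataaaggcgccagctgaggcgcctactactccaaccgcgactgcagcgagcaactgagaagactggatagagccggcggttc
It held 2 matches, which begin 129 and 66 bases before the start. Over all 32851 windows of this length 20.8% held the letters, over the windows of tested genes 33.1%, and over those of the genes called higher 39.7% (92 of 232 windows, from 179 of the 231 genes). In all 6 motifs were searched in these windows, with no test. The serum response element, known from immediate early genes, was in 0.431% of the windows of genes called higher and in 1.63% of those of tested genes, the AP-1 site in 9.48% and 4.74%, and the full cAMP response element, which contains the core, in 4.31% and 3.16%.

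**Figure D2:**
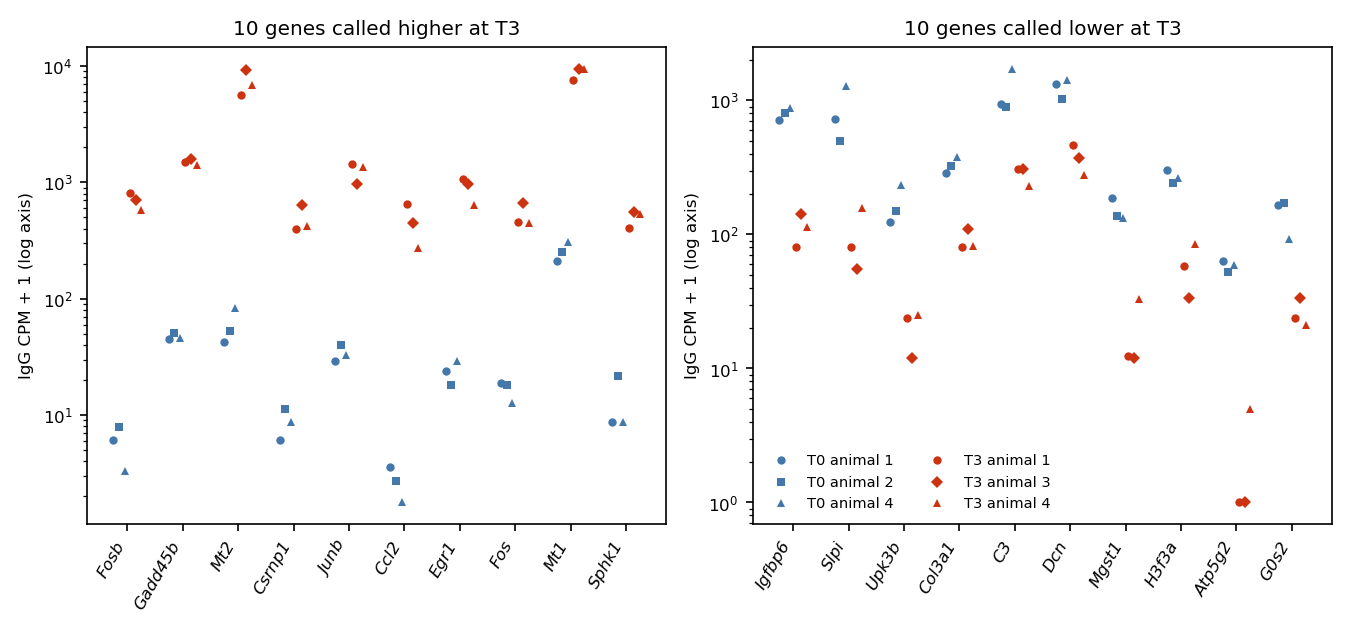
CPM + 1 (vertical log axis) of the 10 genes with the smallest p in each direction, 1 point per IgG library, T0 in blue and T3 in red, with the marker shape giving the animal number. Only called genes without overlap between the groups were eligible, so the separation of T3 from T0 libraries in both panels was required by this choice. Fosb is at 2.33 to 6.86 CPM at T0 and 579 to 817 CPM at T3, and Igfbp6 at 711 to 870 and 79.4 to 141 CPM.

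Of 23 listed chemokines and cytokines 8 were tested, 6 were called higher and 0 lower. All 6 reached the filter in T3 libraries only, so this count was in part fixed by the selection and is given as a description; the 2 tested members that did not depend on T3 in this way, Cxcl12 and Csf1, were not called. Ccl2, the chemokine that draws monocytes through the receptor Ccr2, had 1 count in each T0 library and 57, 41 and 67 counts at T3, which was 647, 446 and 270 CPM. The ratio of summed counts was 290 with a 95% counting interval of 97.6 to 1421, and the groups did not overlap. The neutrophil chemokine Cxcl2 was at 0, 1.71 and 0.775 CPM at T0 and at 193, 130 and 64.4 CPM at T3, from 0, 1 and 1 counts and from 17, 12 and 16 counts, a ratio of 119 with a 95% counting interval of 31.0 to 1010. Csf3, the granulocyte growth factor, had no count at T0 and 7, 6 and 13 counts at T3, at least 13.0-fold higher by the floor averaged over the T0 libraries. Cxcl12, which attracts lymphocytes and is made by resting stroma, and Csf1, the macrophage growth factor, did not pass the test, with log2 fold changes of -1.15 (adjusted p = 0.344) and 0.82 (adjusted p = 0.28). With a minimum mean of 20 counts 1 member of the list was called. Il6 and Lif were not tested, with 3, 0 and 5 and with 2, 0 and 7 counts at T3 and no count at T0.

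The start region of Cxcl2 (chr5:90903649-90903948, GRCm38.p6, plus strand, RefSeq) is shown as that of an NF-kB target that was almost absent at T0; capitals mark the NF-kB consensus site on either strand.
Cxcl2: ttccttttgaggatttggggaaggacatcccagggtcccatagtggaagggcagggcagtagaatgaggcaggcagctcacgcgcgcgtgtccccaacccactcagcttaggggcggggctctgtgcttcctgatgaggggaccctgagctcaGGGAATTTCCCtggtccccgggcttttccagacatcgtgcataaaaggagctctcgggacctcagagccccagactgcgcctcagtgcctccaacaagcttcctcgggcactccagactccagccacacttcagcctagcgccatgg
Its 2 matches overlap and begin 97 and 96 bases before the start. The site was found in 8.46% of all windows, in 11.2% of those of tested genes and in 18.1% of those of the genes called higher (42 of 232), against 12.2% for the genes called lower (6 of 49).

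Among 9 tested NF-kB subunits, inhibitors and targets, 8 were called higher and 0 lower. Of these 8, 4 reached the filter in T3 libraries only (Tnfaip3 among them), and 4 of the other 5 tested members were called. Nfkbia, which holds NF-kB in the cytoplasm, was at 142, 257 and 127 CPM at T0 and at 2417, 2293 and 2028 CPM at T3 (log2 fold change 3.66, SE 0.34, adjusted p = 1.35e-05). The deubiquitinase Tnfaip3, a further brake on the pathway, had 0, 1 and 3 counts at T0 and 5, 5 and 15 at T3. Nfkbiz was the member that missed the threshold (log2 fold change 1.34, adjusted p = 0.107). Without T3 animal 4 the list kept 5 calls, and those of Nfkb1 and Relb were also lost without T3 animal 3 or T0 animals 2 or 4, with adjusted p up to 0.114 and 0.138.

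Of 8 tested JAK-STAT feedback genes and receptors, 5 were called higher and 3 did not pass. Of the 3 members that reached the filter in T3 libraries only, Socs3 among them, 2 were called. Of the other 5 members 3 were called. Among these was Cish, which was under the cutoff of 31.4 CPM in T0 animals 1 and 2 and so needed T3 libraries to be tested. Socs3, the inhibitor of IL-6 family signalling, was at 7.73, 29.1 and 14 CPM and then at 397, 772 and 616 CPM (log2 fold change 5.08, SE 0.43). Cish, a STAT5 target of the same family, was at 23.2, 17.1 and 34.1 CPM and then at 533, 511 and 660 CPM (log2 fold change 4.43, SE 0.36, adjusted p = 3.81e-06). In both genes every T3 library lay above every T0 library. Without T3 animal 4 the list kept 3 calls, those of Pim1 and Osmr being lost with adjusted p up to 0.2 and 0.0706 over the alternatives.

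Metallothioneins became the most abundant risen transcripts. Mt1 was at 211, 254 and 305 CPM at T0 and at 7636, 9498 and 9492 CPM at T3 (log2 fold change 5.08, SE 0.35, adjusted p = 5.97e-07). Mt2 was at 41.2, 51.4 and 83.0 CPM and then at 5594, 9270 and 6824 CPM (log2 fold change 6.87, SE 0.43, adjusted p = 4.79e-07). Both were among the 10 genes with the highest mean CPM at T3, beside the smooth muscle genes Des, Myl9, Tpm1, Tagln, Csrp1, Cnn1 and Actg2 and the ribosomal gene Rplp1, and neither was at T0. Mt3, the isoform known from the nervous system, was at 48.9, 48.0 and 58.9 CPM at T0 and at 56.7, 32.6 and 76.5 CPM at T3, with overlapping groups and a log2 fold change of 0.18 (SE 0.43, adjusted p = 0.855). The zinc importer Slc39a14 did not pass either (log2 fold change 1.25, adjusted p = 0.181), so 2 of 4 tested members of the metallothionein and zinc list were called higher. In the HA libraries the same genes reached higher levels at T3, 19552 to 22125 CPM for Mt1 and 24999 to 28272 CPM for Mt2, with log2 fold changes of 5.23 and 6.74, and the difference between the pull-downs did not pass the test (adjusted p = 0.852 and 0.998).

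The start regions of both genes (Mt1, chr8:94178839-94179138; Mt2, chr8:94172368-94172667; GRCm38.p6, plus strand, RefSeq) are shown because these genes rose together and lie next to each other; capitals mark the core of the metal response element, TGCACNC or TGCGCNC, on either strand.
Mt1: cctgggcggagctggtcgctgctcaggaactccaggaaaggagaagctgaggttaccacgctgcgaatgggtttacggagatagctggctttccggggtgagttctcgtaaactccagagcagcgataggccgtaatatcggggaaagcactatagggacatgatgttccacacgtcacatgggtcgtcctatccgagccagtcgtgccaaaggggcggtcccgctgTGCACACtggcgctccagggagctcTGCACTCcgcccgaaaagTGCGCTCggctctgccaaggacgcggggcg
Mt2: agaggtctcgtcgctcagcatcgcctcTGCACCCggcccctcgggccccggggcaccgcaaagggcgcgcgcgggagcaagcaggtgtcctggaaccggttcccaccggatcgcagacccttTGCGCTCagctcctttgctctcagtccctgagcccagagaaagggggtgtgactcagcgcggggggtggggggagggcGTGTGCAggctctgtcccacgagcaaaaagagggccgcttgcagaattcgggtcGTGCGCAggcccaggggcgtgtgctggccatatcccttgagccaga
Mt1 held 3 matches and Mt2 held 4. The letters are common, with matches in 25.7% of all windows, 36.0% of those of tested genes and 36.2% of those of the genes called higher, so the share among the risen genes was near that of the tested genes.

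Other stress lists changed in part. The DNA damage and growth arrest genes Gadd45b and Gadd45g rose from 43.8, 49.7 and 45.0 to 1486, 1587 and 1400 CPM and from 87.6, 85.7 and 86.8 to 1271, 1771 and 1787 CPM. These 2 genes and the cell cycle inhibitor Cdkn1a (log2 fold change 3.48, SE 0.35) were the 3 called of 8 tested GADD45 and p53 targets, whose median was 0.94. Sphk1, the kinase that makes sphingosine-1-phosphate, was at 7.73, 20.6 and 7.75 CPM and then at 408, 554 and 539 CPM (log2 fold change 5.39, SE 0.41, adjusted p = 1.67e-06). It reached the filter in T3 libraries only. Of 7 tested matrix protease and wound genes 5 were called higher, 4 of which reached the filter in T3 libraries only, among them Adamts1, a secreted protease, at a log2 fold change of 3.94. Of 8 tested NRF2 targets 4 were called higher, 2 of which reached the filter in T3 libraries only, the haem oxygenase Hmox1 among them (log2 fold change 3.94, SE 0.51), and the ferritin heavy chain Fth1 was called lower (log2 fold change -1.45), a call lost in 5 of the fits that left out 1 library. Of 13 tested chaperones 2 were called higher (Hspa1a and Bag3), with a median of 0.32. The abundant chaperone Hspa8 was at 1540, 1500 and 1133 CPM and then at 1509, 1119 and 2543 CPM, with overlapping groups. The tested members called higher numbered 3 of 6 for glucocorticoid-induced genes (median 1.69), 2 of 7 for interferon response genes (median 1.07), 3 of 7 for clock genes (median 0.62), 2 of 3 for the integrated stress response (median 1.42), 1 of 2 for MAPK feedback, 0 of 3 for cholesterol synthesis and uptake (median 1.38) and 0 of 3 for prostaglandin genes (median -0.52), with no member called lower. Without T3 animal 4 no glucocorticoid-induced gene was called, as Fkbp5, Per1 and Klf9 all missed the threshold (1 was called without T0 animal 2, T0 animal 4 or T3 animal 3). The calls of Gbp5, Nr1d1, Cry2, Atf4, Plaur, Adamts9 and Hspa1a were lost in the same fit. Among the interferon and clock calls, Gbp5 and Bhlhe40 reached the filter in T3 libraries only. Over all tested genes 4.43% were called higher.

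**Figure D3:**
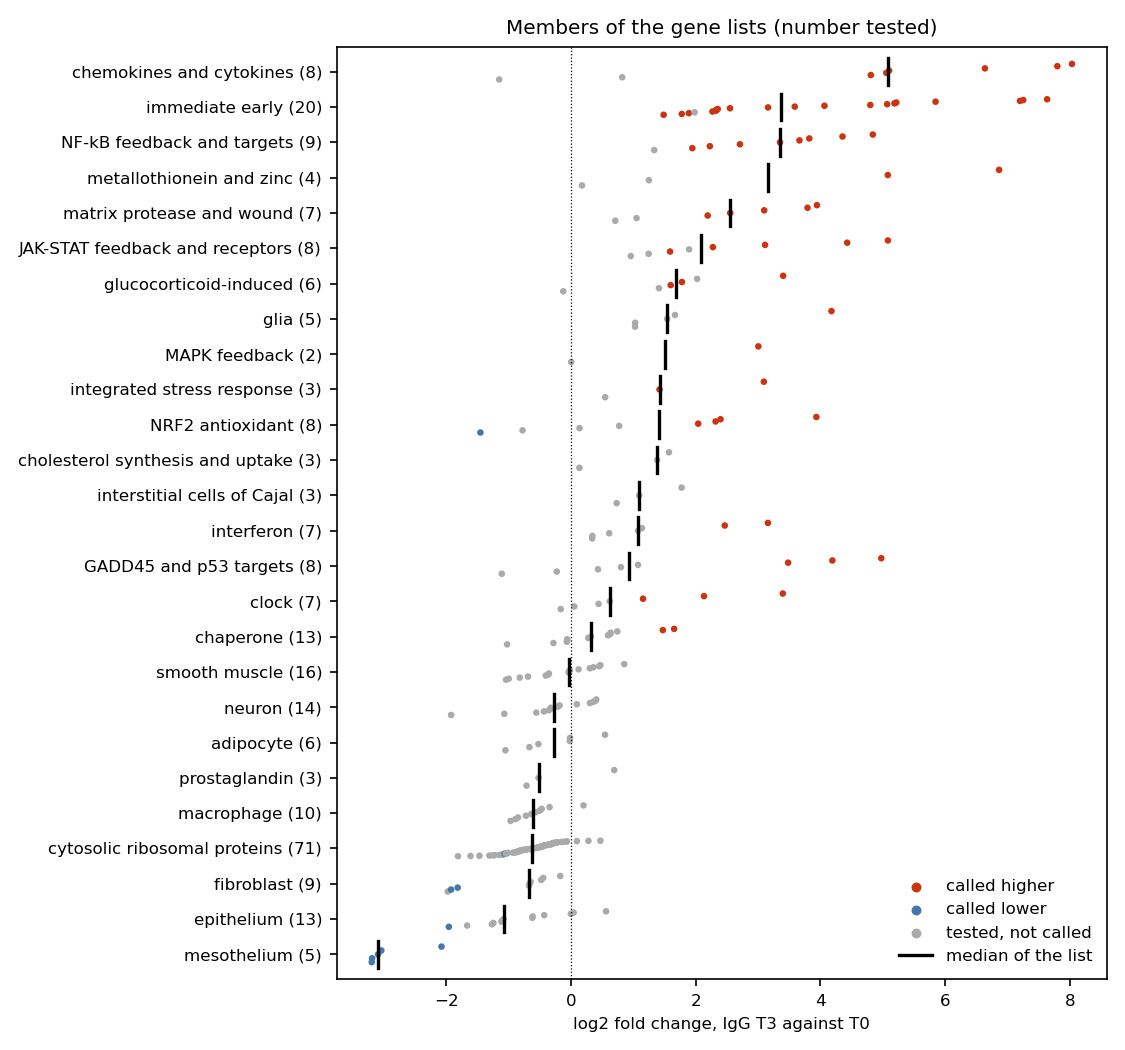
Log2 fold change of IgG T3 against T0 (horizontal axis) for the tested members of each gene list, with their number in parentheses. Points are genes, red where called higher, blue where called lower and grey otherwise, and black bars are list medians, among them 3.37 for immediate early genes and -0.63 for ribosomal proteins.

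The falls included genes of the serosal surface and of connective tissue. All 5 tested mesothelial markers were called lower, of 7 in the table. Of the 5, 4 reached the filter in T0 libraries only, so their fall was in part fixed by the selection, and the exception was Msln. Upk3b, a uroplakin of mesothelial cells, was at 124, 149 and 234 CPM at T0 and at 22.7, 10.9 and 24.1 CPM at T3, from 2, 1 and 6 counts (log2 fold change -3.04, SE 0.49, adjusted p = 0.00142). Msln, mesothelin, was at 144, 182 and 324 CPM and then at 34.0, 32.6 and 72.4 CPM (log2 fold change -2.08, SE 0.46, adjusted p = 0.0146). The groups of both genes were apart, and the summed level of the 7 mesothelial markers in the table was 438, 538 and 886 CPM at T0 and 102, 86.9 and 105 CPM at T3. Upk1b, Lrrn4 and Gpm6a each had 3 counts in all at T3, with ratios of T0 to T3 of 11.5 (95% counting interval 3.87 to 56.3), 10.7 (3.61 to 52.6) and 9.67 (3.25 to 47.4). In HA of the same mice the 5 markers were also called lower, with a median of -3.02. In bulk RNA fewer cells of a type and less RNA per cell cannot be told apart. The calls were fragile: 1 remained without T0 animal 4, 2 without T3 animal 3 or T3 animal 4, 3 without T0 animal 2 and 0 under voom with quality weights.

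Igfbp6, a binding protein of insulin-like growth factor II, had the smallest p among the falls. It was at 711, 806 and 870 CPM at T0 and at 79.4, 141 and 113 CPM at T3 (log2 fold change -2.85, SE 0.32, adjusted p = 6.45e-05). Slpi, a secreted protease inhibitor, was at 729, 501 and 1291 CPM and then at 79.4, 54.3 and 157 CPM (log2 fold change -3.01), and complement C3 was at 935, 886 and 1724 CPM and then at 306, 304 and 229 CPM (log2 fold change -2.14, SE 0.35, adjusted p = 0.00158). Each T3 library of these 3 genes lay under every T0 library, and the call of Slpi was lost without T3 animals 1 and 3.

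Of 9 tested fibroblast markers 0 were called higher and 2 lower, with a median of -0.67. The collagen gene Col3a1 was at 289, 324 and 378 CPM and then at 79.4, 109 and 80.5 CPM (log2 fold change -1.92, SE 0.31, adjusted p = 0.00158). The proteoglycan gene Dcn was at 1321, 1018 and 1420 CPM and then at 465, 369 and 278 CPM (log2 fold change -1.82, SE 0.31, adjusted p = 0.00217). Both kept their call under every alternative. Pdgfra and Col1a1 were not called (log2 fold changes -0.48 and -0.67, adjusted p = 0.562 and 0.431), so the calls did not cover the list. Col1a1 was called in 2 alternatives, with the replicate block and without T3 animal 3. Of the 9 markers 0 had a fold change above 0, and 4 lay lower at T3 without overlap, against 12.6% of all tested genes. In HA of the same mice 6 of 10 tested markers were called lower and 1 higher, with a median of -1.10.

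The remaining genes with the smallest p among the falls were of mixed function. They were Mgst1, a microsomal glutathione transferase (log2 fold change -2.75), the lipolysis inhibitor G0s2 (-2.55), the mitochondrial adenylate kinase Ak3 (-2.24), the histone gene H3f3a (-2.08) and Atp5g2, a subunit of the mitochondrial ATP synthase. Atp5g2 had 24, 30 and 75 counts at T0 and 0, 0 and 1 at T3, a ratio of T0 to T3 of 24.5 with a 95% counting interval of 4.31 to 973. H3f3a and Atp5g2 have near-identical relatives in the genome and only reads with unique mapping were counted, so their levels are uncertain. Ak3 and Atp5g2 reached the filter in T0 libraries only, so their fall was in part fixed by the selection. Mgst1, G0s2 and Ak3 lost their calls under voom with quality weights, and Ak3 also without T0 animal 2. Without T3 animals 1 and 3 the log2 fold change of Ak3 was -1.85.

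Abundant muscle RNA did not pass the test in either direction. All 16 smooth muscle markers were tested and 0 were called in either direction, with a median log2 fold change of -0.03. Des, the intermediate filament of muscle, was at 12163, 19004 and 17624 CPM at T0 and at 21194, 15768 and 25970 CPM at T3, with overlapping groups (log2 fold change 0.36, SE 0.33, adjusted p = 0.576). Actg2, the enteric smooth muscle actin, was at 12395, 10797 and 14617 CPM and then at 6762, 6183 and 8760 CPM, where the groups were apart but the test was not passed (log2 fold change -0.82, SE 0.31, adjusted p = 0.149). In the fit of all 12 libraries, in that with no filter, in that with the replicate number as a block and in that without T3 animal 4, 1 marker was called. Of 14 tested neuronal and 10 tested macrophage markers 0 were called in either direction, with medians of -0.27 and -0.60, and of 6 adipocyte markers 0 (median -0.27). Fold changes above 0 were found in 5 of the neuronal and 1 of the macrophage markers. Lower at T3 without overlap were 0 neuronal and 4 macrophage markers, against 12.6% of all tested genes. In HA of the same mice 4 of 12 tested macrophage markers were called lower and 0 higher.

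**Figure D4:**
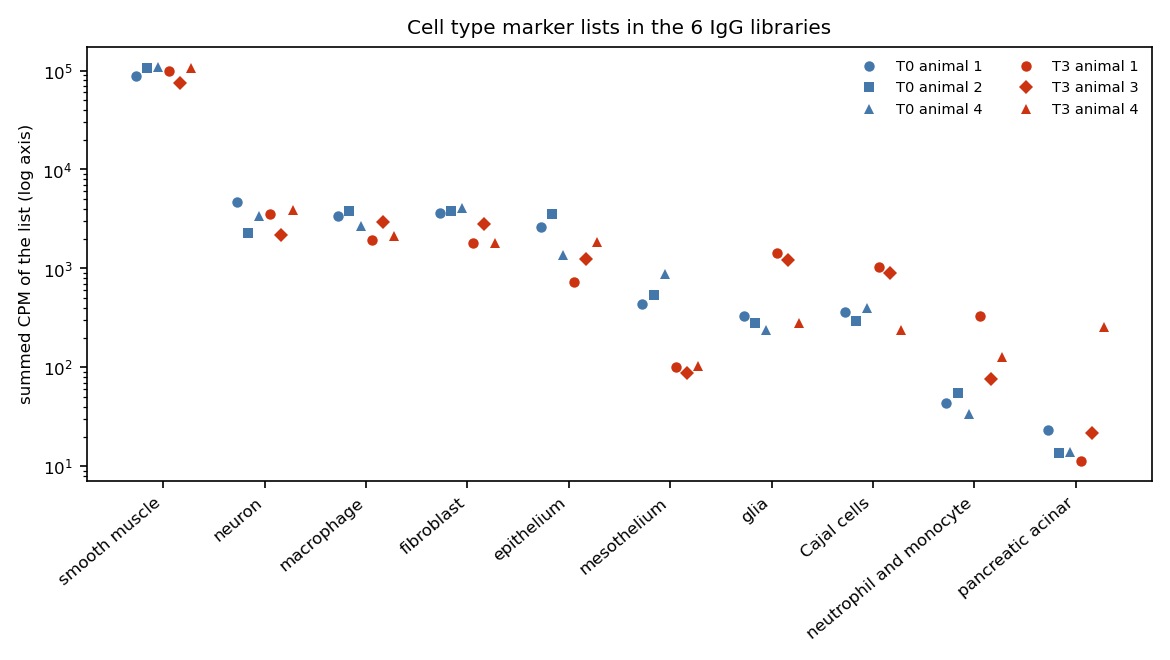
Summed CPM of cell type marker lists (vertical log axis), 1 point per IgG library, T0 in blue and T3 in red, with the marker shape giving the animal. Mesothelium is at 438 to 886 CPM at T0 and 86.9 to 105 CPM at T3, and glia and Cajal cells are high in T3 animals 1 and 3 but not in T3 animal 4 (282 and 237 CPM).

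Among glial genes Gfap was higher in all 3 T3 libraries, whereas the summed level of the other markers was high in T3 animals 1 and 3 and not in T3 animal 4. Gfap, the intermediate filament of reactive glia, was at 2.58, 6.86 and 6.98 CPM at T0 and at 113, 141 and 101 CPM at T3, with every T3 library above every T0 library and T0 below the filter (log2 fold change 4.18, SE 0.46, adjusted p = 6.4e-05). In HA of the same animals it was at 1515, 1672 and 1960 CPM at T3, so the IgG level was 7.49%, 8.45% and 5.13% of the HA level. The other 12 glial markers together stood at 37.6% and 28.4% of their HA level in T3 animals 1 and 3 and at 5.79% in T3 animal 4, against 5.04% to 7.28% at T0. Of 5 tested glial markers Gfap was the call, and the median of the list, 1.54, became -0.44 without T3 animals 1 and 3. The 3 tested Cajal cell markers had log2 fold changes of 0.73 to 1.77 with 0 called, and 2 of them were called without T3 animal 4.

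Markers of incoming or adjoining cells were mostly below the filter, with epithelium as the exception. S100a8 and S100a9, the calprotectin genes of neutrophils, had no count at T0 and 10, 1 and 8 and 11, 1 and 14 counts at T3, at least 10.3-fold and 12.6-fold higher by the floor averaged over the T0 libraries, and neither was tested. The other 4 of the 6 neutrophil and monocyte genes in the table were Il1r2, Ccr2, Plac8 and Mmp9. Il1r2 had 2 counts in all at T0 and 16 at T3, a ratio of 42.2 (counting interval 9.92 to 378). Ccr2 had 5, 10 and 11 counts at T0 and 1, 0 and 0 at T3. Its ratio of T3 to T0 was 0.203, and the counting interval of 0.00495 to 1.24 included no change. The ratios of Plac8 and Mmp9 were 0.459 and 0.555, with intervals that also included no change (0.120 to 1.26 and 0.0627 to 2.30). The 6 pancreatic acinar genes summed to 253 CPM in T3 animal 4, with 22 counts of Cela2a and 19 of Ctrb1, and to 11.3 to 23.2 CPM in the other 5 libraries. Of 13 tested epithelial markers 1 (Fabp2) was called lower, a call lost in 9 of the alternatives, and the list summed to 737 to 1831 CPM at T3 and 1371 to 3524 CPM at T0. The 10 endothelial genes and the red cell gene in the table were below the filter, and the lymphocyte marker that was tested, Jchain, was not called (log2 fold change -1.80).

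Nearly all ribosomal protein genes had a fold change under 0, and 1 passed the test. Of 71 tested cytosolic ribosomal protein genes 0 were called higher and 1 lower (Rpl11). A fold change above 0 was found in 3 of the 71, and the median log2 fold change was -0.63. Lower at T3 without overlap were 22 of the 71, against 12.6% of all tested genes. In HA of the same mice 9 of 72 tested members were called higher and 5 lower, with a median of 0.20. Rpl11 was at 951, 958 and 972 CPM at T0 and at 408, 489 and 495 CPM at T3 (log2 fold change -1.06, SE 0.27, adjusted p = 0.0368), and its call was lost without any of T0 animals 1, 2 and 4 and T3 animals 1 and 3. The summed level was 101300, 92858 and 134143 CPM at T0 and 59079, 63800 and 96965 CPM at T3, so T3 animal 4 lay above T0 animal 2. Single genes differed widely within T3: Rps16 had 1, 1 and 301 counts (11.3, 10.9 and 1211 CPM) and Rpl7a 1, 5 and 185, against 1003 to 1948 CPM and 694 to 1373 CPM at T0. Without T3 animal 4 the test called 11 members lower, and with the replicate block 9. Many ribosomal protein genes have processed copies in the genome, and counting of unique reads makes their levels uncertain.

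The change in IgG was then set against that in HA of the same mice, in which ribosomes of the Cre-expressing cells were enriched. The interaction of antibody and time passed in 34 of 10314 genes (0.33%), 3 with the more positive change in IgG and 31 with the more positive change in HA, and 1081 genes had an unadjusted p under 0.05. Each mouse gave both libraries, and in the fit that blocked on the mouse 158 genes passed (1.53%), 25 and 133 in these directions, with all 34 among them. Of the 285 genes called in IgG 6 passed the interaction without the block and 21 with it. In HA alone 33.8% of 9441 genes passed between T3 and T0, in libraries 5.17 to 16.3 times deeper than IgG at T3. The median difference over all genes was -0.18 with TMM scaling and 0.18 with scaling to total counts, and the latter called 8 genes, 2 with IgG and 6 with HA more positive. Over the fits that left out 1 library it ranged from 5 (without HA of T3 animal 4) to 95 (without IgG of T3 animal 4).

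Of the 5 genes named for a more positive change in HA, all were called higher in HA and 1 (Srxn1) was called higher in IgG. Ezr, which links membrane to actin, was at 82.4, 96.0 and 124 CPM at T0 and at 102, 141 and 145 CPM at T3 in IgG, with overlapping groups, and at 61.8, 72.1 and 80.8 CPM and then 413, 398 and 554 CPM in HA. Its change in IgG minus that in HA was -2.66 on the log2 scale (SE 0.36, adjusted p = 0.000716). The small heat shock protein gene Cryab was at 618, 603 and 794 CPM and then at 976, 1011 and 600 CPM in IgG, and at 1416, 1101 and 1326 CPM and then 6284, 5481 and 5771 CPM in HA (difference -2.25, SE 0.33). The helix-loop-helix inhibitor Id3 stayed within 79.4 to 174 CPM in IgG at both times and rose from 71.0 to 83.3 CPM to 291 to 413 CPM in HA (difference -2.51, SE 0.37). Srxn1, a sulfiredoxin, rose in both, by 2.32 in IgG and by 5.00 in HA on the log2 scale (difference -2.79, SE 0.39). Frmd4a, a scaffold of cell polarity, had a difference of -2.69 (SE 0.42), from 20.6 to 34.3 CPM and 43.5 to 68.4 CPM in IgG and 20.7 to 28.6 CPM and 247 to 280 CPM in HA.

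**Figure D5:**
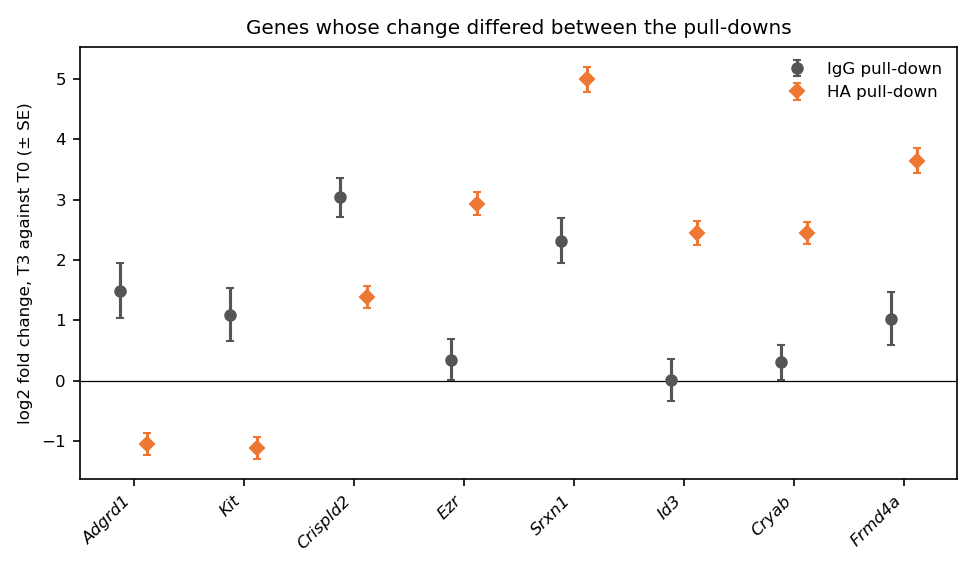
Log2 fold change of T3 against T0 (vertical axis, ± SE, 3 libraries per group) in IgG (circles) and HA (diamonds) for the 8 genes named from the interaction. Adgrd1, Kit and Crispld2 lie higher in IgG than in HA, and the other 5 lie higher in HA.

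For Adgrd1 and Kit, of the 3 genes with the more positive change in IgG, the T3 libraries of animals 1 and 3 were high and that of animal 4 was not; the part of this in the result was not tested. Adgrd1, an adhesion receptor, was at 67.0, 97.7 and 73.7 CPM at T0 and at 329, 337 and 72.4 CPM at T3 in IgG, so T3 animal 4 lay within the T0 range (difference from HA 2.4, SE 0.48, adjusted p = 0.0261). Kit, the receptor that marks Cajal cells, was at 69.5, 96.0 and 65.1 CPM and then at 250, 228 and 64.4 CPM, with T3 animal 4 below every T0 library (difference 2.06, SE 0.44, adjusted p = 0.0358). In HA both fell, by 1.05 and 1.11 on the log2 scale. Crispld2, a secreted protein gene, rose in all 3 T3 libraries of IgG, from 43.8, 75.4 and 49.6 CPM to 420, 630 and 382 CPM, and by 1.38 on the log2 scale in HA (difference 1.56, SE 0.35, adjusted p = 0.0488). No gene had a called, more positive change in IgG in the fits without IgG of T0 animal 4 or T3 animal 3, or without HA of T0 animals 2 or 4 or T3 animals 3 or 4.

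The 3′ ends of the transcripts were searched for 2 overlapping AU-rich motifs, with no test. The pentamer ATTTA had a median of 1 copy in genes called higher, in genes called lower and in all tested genes. The longer heptamer TATTTAT, part of an element known to speed decay of early response mRNAs, was found in the last 1000 bases of the longest coding transcript of 74 of 226 matched genes called higher (32.7%), of 5 of 51 called lower (9.80%) and of 901 of 5028 tested (17.9%). At least 2 copies were found in 28 of the higher genes (12.4%) and in 3.72% of tested genes. Cxcl2 held 7 copies and Cxcl1 held 6. The AT content of these ends did not separate the groups in the same way, with medians of 49.6%, 50.0% and 51.1%. A match describes letters in this window and not a functional site.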

How the data were processed

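Muscularis RNA from 6 mice was pulled down with anti-HA or with IgG1 and sequenced as 3′ libraries with molecular identifiers (bulk MARS-seq), pooled in sets of up to 8 samples; which samples shared a pool is not given in the sources used here. The authors trimmed reads with cutadapt, aligned them to mm10 with STAR 2.4.2a and counted unique reads with HTSeq-count from 1000 bases upstream to 100 bases downstream of gene 3′ ends; the deposited values are raw counts per gene, and the use of strand is not stated. They used DESeq2 1.26.0.

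The members, lists and tests were chosen with earlier results of these data known. The test was that of edgeR 4.0.16 under R 4.3.3 (filterByExpr, TMM scaling, robust quasi-likelihood F-test), run on the 6 IgG libraries, with Benjamini-Hochberg adjustment over all tested genes and a threshold of 0.05; the interaction of antibody and time was fitted on all 12 libraries. CPM was computed from library totals. Deviations from group means of HA and IgG of the same animal correlated at 0.165 to 0.450, and the animal served as a block in an alternative interaction fit. Other alternatives were DESeq2 1.42.0, voom with quality weights (limma 3.58.1), other scalings and filters, and leaving out libraries; the fit without T3 animals 1 and 3 was added after seeing the data. With 1 library left in a group, it is assumed to vary like the other group. The scripts were tested on simulated data.

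Named genes were the 12 per direction with the smallest p among called genes without overlap and with a log2 fold change past 1 in size, the 10 most abundant per group, up to 5 per direction of the interaction, the genes at up to 3 counts in every T0 library and above in every T3 library, and list members; some of these are not reported here. The samples are separate animals, 3 per group. Promoter windows and transcripts came from RefSeq and GENCODE annotation of GRCm38.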

Additional observations from a re-analysis of the deposited data

Results flagged for a closer look

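The change from T0 to T3 differed between the IgG and HA pull-downs, by the test of the interaction, for the 8 genes named in the report. They were named by the smallest p of this same test in each direction. The change in IgG minus that in HA was 2.4 for Adgrd1, 2.06 for Kit and 1.56 for Crispld2 on the log2 scale. It was -2.66 for Ezr, -2.79 for Srxn1, -2.51 for Id3, -2.25 for Cryab and -2.69 for Frmd4a. For Adgrd1 and Kit the IgG library of T3 animal 4 (72.4 and 64.4 CPM) lay within or below the T0 range. Crispld2 was close to the threshold (adjusted p = 0.0488 in the interaction test). In several fits without 1 library, such as that without IgG of T3 animal 3, no gene had a called, more positive change in IgG.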

How the results depend on the processing

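The count of 285 called genes was 705 in the fit of all 12 libraries (445 higher, 260 lower), 519 with no filter (192 lower), 185 with a minimum mean of 20 counts (28 lower), and 289 with the replicate number as a block (207 higher, 82 lower). The share of higher calls was 81.1%, and 63.1%, 63.0% and 71.6% in the fit of all libraries, with no filter and with the block. Over the fits without 1 library the count ranged from 162 to 334, the higher calls from 143 to 279 and the lower calls from 18 to 55. DESeq2 called 306 genes, RLE scaling 283, total counts 274 and voom 298, without a change of more than 1.5 times. The numbers 1 and 4 at T0 and T3 name different mice, and deviations of equal numbers correlated at 0.302 and 0.063. For the interaction, DESeq2 called 86 genes, the animal as a replicate block 158, RLE scaling 20 and total counts 8, and 5 to 95 were called without 1 library. The median of the glial list became -0.44 without T3 animals 1 and 3. The cause of these shifts was not tested. Among single named genes 3106 values kept their side of the threshold, 37 passed it and 147 lost it. The shallow T3 libraries limit falls most: 1 count was 11.3, 10.9 and 4.02 CPM.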
